A study of Nannochloropsis oceanica with 6 samples.

Results

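The genes described are 3 ion transport genes of Nannochloropsis oceanica, a unicellular marine alga that stores oil: the two-pore potassium channels TPKA (NO29G01700) and TPKC (NO29G01710), whose IDs are adjacent, and the sodium/proton exchanger NHX8 (NO03G02820). They are 3 of the 10481 genes in the deposited tables, and they were picked by ID with their nitrogen response in these libraries already known. The difference between conditions is therefore given for them as a description, without a test.

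The libraries come from strain IMET1, whose cells were grown in f/2 medium made with 35 g/L sea salt and 1 g/L NaNO3, under continuous light and bubbled CO2. Cells in logarithmic growth were washed in seawater and split into 3 cultures in full f/2 medium, the nitrogen repletion group (NR), and 3 in nitrogen-free f/2, the nitrogen deprivation group (ND). RNA was taken 72 h later. All cultures were thus of 1 strain, and both groups went through the same washing and transfer. The estimated counts of a library summed to between 3972986 and 5693513. Levels within a gene are given in normalised CPM (counts scaled by library total and by a composition factor). Levels between genes are given in TPM, transcript abundances that are scaled for gene length and sum to the same total in every library.

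Potassium is the main cation inside plant and algal cells. Two-pore potassium channels carry a pair of pore domains in each subunit. In land plants most of those studied sit in the vacuole membrane, let potassium leak out of the vacuole, and are regulated by calcium and by 14-3-3 proteins. Sodium/proton exchangers move sodium out of the cytosol in exchange for protons, driven by the proton gradient that membrane pumps build, and also set the pH on both sides of the membrane. In Arabidopsis, NHX7 (also called SOS1) exports sodium at the plasma membrane, and NHX8 is its close relative, studied as a lithium/proton exchanger. For an alga in seawater these systems keep sodium out of the cytosol and potassium within it. The names of the 3 genes were given by similarity to proteins of rice and Arabidopsis, those of other genes also by similarity to animal, fungal or bacterial proteins, and transport by the algal proteins was not measured.

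All 3 transcripts were scarce or moderate in nitrogen-fed cells and among the more abundant ones in deprived cells. By mean TPM, TPKA stood at place 8449 of 10481 genes in NR and at place 846 in ND. TPKC stood at place 6893 in NR and at place 295 in ND, and NHX8 at places 4138 and 130. The RNA was taken from whole cultures, so a higher level in each cell and a larger share of cells with the transcript cannot be told apart.

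TPKA, annotated after the rice two-pore channel a, had 9.06, 8.72 and 9.90 TPM in NR cultures 1 to 3 and 211, 223 and 227 TPM in ND cultures 1 to 3. The groups were far apart, with the lowest ND library 21.3 times the highest NR library, while the libraries of a group lay close together. The estimated counts behind these values were 33, 28 and 32 in NR and 709, 844 and 992 in ND. In NR the coefficient of variation was 6.58% of the mean TPM, under the 18% that the square root of the mean count gives. The closeness of the NR libraries is thus no measure of precision. In normalised CPM the level was 8.23 ± 0.595 (SD, n = 3) in NR and 151 ± 4.92 in ND, a log2 fold change of 4.20, or 18.3 times.

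TPKC, annotated after the rice two-pore channel c, had 27.0, 18.5 and 13.1 TPM in NR cultures 1 to 3 and 450, 473 and 511 TPM in ND cultures 1 to 3. Its NR libraries differed more among themselves than those of the other 2 genes, with NR culture 1 at about double NR culture 3, but none came near an ND library, and the lowest ND library was 16.7 times the highest NR library. Only 28, 17 and 12 counts lay behind the NR values. Their exact Poisson intervals at 95%, which cover counting error only, ran from 18.6 to 40.5, from 9.9 to 27.2 and from 6.2 to 21.0 counts and overlapped. The coefficient of variation in NR was 35.9% of the mean TPM, where the square root of the mean count alone gives 22.9%. In normalised CPM the level went from 4.97 ± 1.80 to 90.8 ± 5.74, a log2 fold change of 4.17, or 18.0 times.

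NHX8 was the most abundant of the 3 and the steadiest between cultures. It had 46.6, 44.5 and 48.2 TPM in NR cultures 1 to 3 and 775, 773 and 757 TPM in ND cultures 1 to 3. The lowest ND library was 15.7 times the highest NR library, and the coefficient of variation was 3.97% in NR and 1.30% in ND. With 534 to 634 counts per NR library and 9782 to 12434 per ND library, counting error was small. In normalised CPM the level was 154 ± 6.20 in NR and 1983 ± 33.2 in ND, a log2 fold change of 3.69, or 12.9 times.

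**Figure D1:**
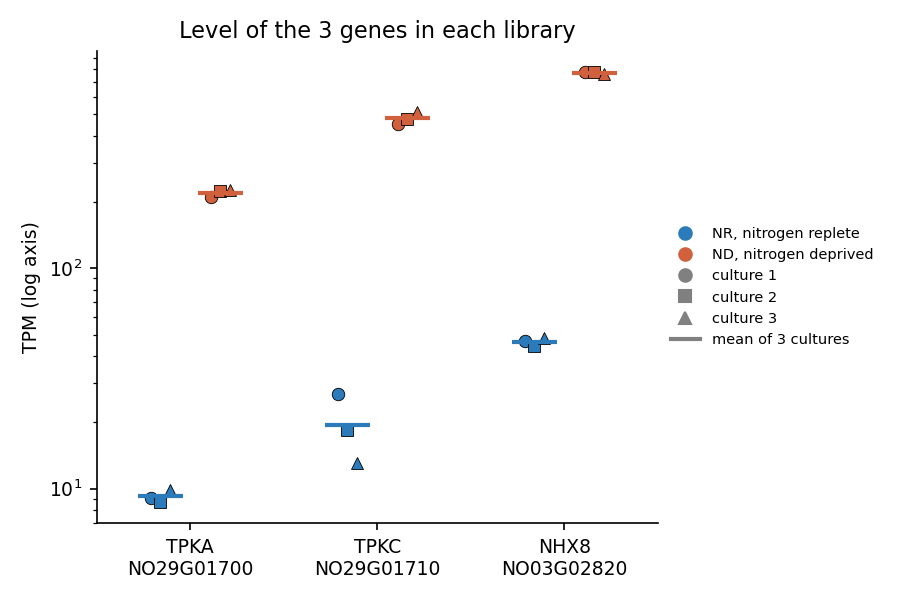
Level of TPKA, TPKC and NHX8 in TPM on a log axis, with 1 point per library, blue for NR and orange for ND, marker shape for the culture number and a bar at the mean of 3 cultures. For each gene every ND point lies well above every NR point, and the NR points of TPKC, at 13.1 to 27.0 TPM, are the most scattered.

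The size of these differences depends on the scale. On the ratio of mean TPM, which has no composition factor, TPKA was 23.9 times, TPKC 24.5 times and NHX8 16.5 times higher in ND. In the fit to counts, the median log2 change of all 9329 genes tested was 0.02 with the composition factors and 0.34 with library totals alone. The log2 changes of TPKA, TPKC and NHX8 were 4.20, 4.17 and 3.69 with the factors and 4.51, 4.48 and 4.00 without them. Taken relative to those medians, they were 4.17, 4.14 and 3.66 under either scaling. Among the tested genes the 3 held places 22, 23 and 31 by log2 fold change. The authors' deposited table of their own comparison lists them with log2 changes of 4.19 for TPKA, 4.16 for TPKC and 3.67 for NHX8, at places 28, 30 and 39 of 853 listed rises.

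The order of the 3 by TPM was the same in both conditions, NHX8 above TPKC above TPKA, and the ranges of neighbours in that order did not overlap. The mean ratio of the channels to each other was similar in both conditions. The NR ratios rest on only 12 to 28 counts of TPKC and 28 to 33 of TPKA, so a change could have gone unseen. TPKC stood at 2.13, 2.12 and 2.25 times the TPM of TPKA in ND cultures 1 to 3 and at 2.98, 2.13 and 1.32 times in NR cultures 1 to 3. The NR ratios enclosed the ND ratios, and their mean was 2.14 ± 0.83 in NR and 2.17 ± 0.0723 in ND. NHX8 stood at 4.87 to 5.14 times the TPM of TPKA in NR and at 3.33 to 3.67 times in ND, ranges that did not overlap.

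The gene models differ in length, which bears on the comparison by TPM. TPKC is 624 bp long, with a deposited effective length of 353 to 375 bp. TPKA has 2 transcript models with a mean length of 1550 to 1570 bp, and NHX8 has 1 model of 5097 bp. By estimated count, with no length scaling, TPKC held 0.585 to 0.626 of the TPKA count in ND and 0.375 to 0.848 in NR. All deposited counts of the 3 genes were exactly whole in all 6 libraries, without any fractional part. Whether the short TPKC model and the adjacent TPKA model are separate transcription units was not tested.

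The deposited annotation gives TPKA and TPKC the same KEGG orthology group (KCNKF), which no other gene in the tables carries. Both have the terms potassium channel activity and calcium ion binding, and TPKA alone has the terms plant-type vacuole membrane and potassium ion leak channel activity. NHX8 shares its orthology group with 3 further genes, those named NHX7 (NO16G01350) and NHX8 (NO13G03010 and NO30G00340). Its terms include sodium:proton antiporter activity and regulation of pH.

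The models next to these genes by ID differed less between conditions than the 3 genes did. The 3 were picked with their response known and hold places 22, 23 and 31 of 9329, so nearly any other gene would rise less. The contrast is therefore description only. Directly below TPKA, SMCHD1 (NO29G01690), annotated as a hinge domain protein of chromosome structure, went from 88.3 ± 6.57 to 104 ± 5.02 CPM, a log2 change of 0.23 ± 0.07 (SE; adjusted p = 0.00964, edgeR's quasi-likelihood test). Directly above TPKC, cct7 (NO29G01720), a chaperonin subunit, rose from 8.51 ± 1.72 to 22.4 ± 2.03 CPM (1.39 ± 0.17). The next model, an antenna protein gene (NO29G01730), fell from 811 ± 39.4 to 244 ± 5.44 CPM (log2 change -1.73 ± 0.05). Further out, NO29G01670, with no described function, rose by 1.70 ± 0.21 on the log2 scale, Acin1 (NO29G01680) rose by 0.22 ± 0.08, and NO29G01740, with shared reads, fell by 0.25 in the fit with composition factors but had +0.07 with library totals alone. Around NHX8, the changes ran from -0.47 for pikAI (NO03G02790) and nolO (NO03G02830) to 0.36 for cbc2 (NO03G02800), which did not pass (adjusted p = 0.0739). The other models there were chmp1 (NO03G02810, -0.30, and 0.01 with library totals alone), ria1 (NO03G02840, 0.24) and ARF1 (NO03G02850, -0.17, adjusted p = 0.195, and 0.15 with library totals alone).

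**Figure D2:**
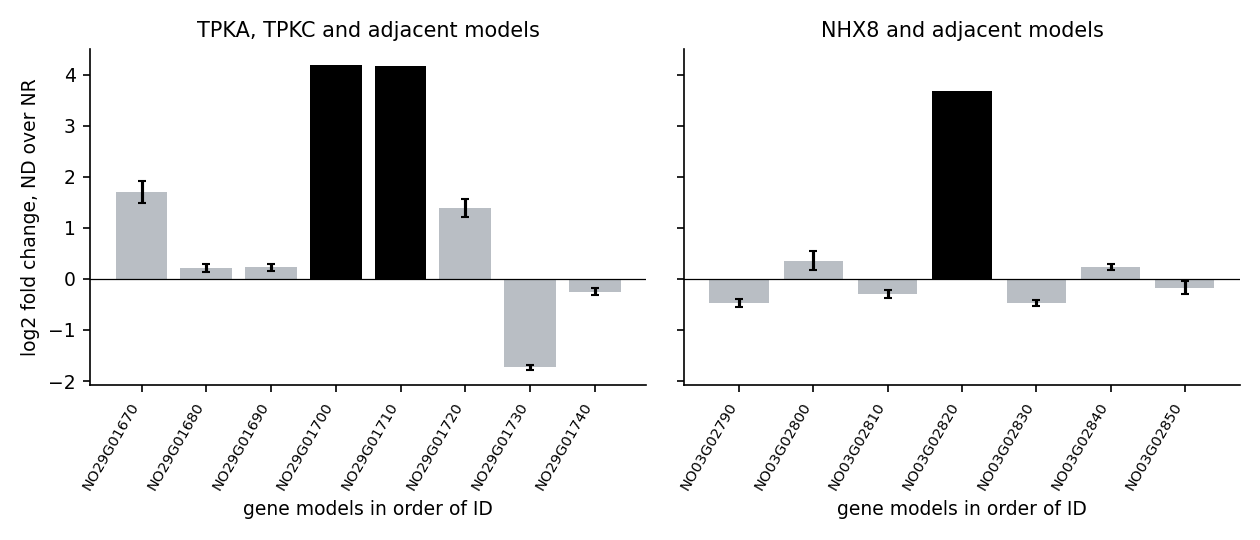
Log2 fold change of ND over NR for the 3 gene models on either side of TPKA and TPKC (left) and of NHX8 (right), in order of gene ID, with black bars for the 3 chosen genes and SE on the grey bars of the others. The black bars reach 4.20, 4.17 and 3.69, and no grey bar exceeds the 1.70 of NO29G01670. The 3 genes were picked with their response known, so the contrast is description only.

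Further members of the exchanger family were higher in ND more often than lower. Of 12 genes matched as sodium/proton or cation/proton exchangers besides NHX8, 7 rose, 2 fell and 3 missed the threshold (8 higher and 1 lower when scaled by totals only). Their median log2 change was 0.39, against 0.02 for all genes. NO13G02990 (shared reads), described as a sodium hydrogen exchanger but matched to another list, is not among them. It did not pass (-0.13 ± 0.07, edgeR adjusted p = 0.1), but was called higher at 0.18 with library totals alone. As background, 35.7% of all 9329 genes tested were called higher in ND and 35.5% lower (71.2% either way). With library totals alone the calls were 5075 genes higher and 2149 lower, against 3333 and 3312 here.

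CHX18 (NO19G00470), named after an Arabidopsis cation/proton exchanger, rose from 2.42 to 20.1 CPM (log2 change 3.02 ± 0.27) but was scarce in both conditions, with 0.60 to 2.11 TPM in NR and 11.9 to 15.8 TPM in ND. NHX7 (NO16G01350), named after the plasma membrane sodium exporter of Arabidopsis, rose from 56.6 ± 4.18 to 129 ± 1.71 CPM (1.18 ± 0.07). CHX17 (NO25G02010, shared reads) rose from 129 ± 10.7 to 250 ± 2.47 CPM (0.95 ± 0.06). The gene nhaA (NO03G03670, shared reads) fell from 77.5 ± 4.34 to 35.9 ± 2.88 CPM (-1.11 ± 0.09). It is described as a bacterial-type sodium/proton antiporter in one annotation column and as a peptidase in another.

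The other genes with the name NHX8 had small changes. NO30G00340 went from 53.7 to 78.2 CPM, a rise of 0.55 ± 0.08 on the log2 scale. NO13G03010 had 52.3 CPM in NR and 46.0 in ND and did not pass (-0.18 ± 0.10, edgeR adjusted p = 0.106, and 0.13 with library totals alone). In NR this copy, at 50.4 to 62.4 TPM, was above the chosen NHX8 at 44.5 to 48.2 TPM. In ND it had 56.5 to 64.6 TPM, far under the 757 to 775 TPM of the chosen gene.

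The order of levels within the family changed at its top. In NR, NHD1 (NO08G02260), named after a chloroplast sodium/proton antiporter of Arabidopsis, led with 168 ± 14.3 TPM, and the chosen NHX8 came at place 3 of 13, with a range that overlapped that of NHX4 (NO11G00780, 43.4 to 45.5 TPM). In ND the chosen NHX8 was first of the 13. NHD1 was second with 235 ± 3.20 TPM and NHX7 next with 81.4 ± 0.875 TPM, with no overlap between these. NO13G02990 (shared reads), described as a sodium hydrogen exchanger, was matched to the list of other sodium-linked transporters and is not among the 13. In NR it had 83.3 to 92.4 TPM, above the chosen NHX8. In ND it had 86.2 to 114 TPM, above NHX7 and under NHD1. The chosen NHX8 made up 9.44%, 9.08% and 10.5% of the summed TPM of the 13 genes in NR cultures 1 to 3 and 53.3%, 53.8% and 52.7% in ND cultures 1 to 3. The sum of the other 12 was 410 to 447 TPM in NR and 665 to 679 TPM in ND. With NO13G02990 added to the sum, the share of the chosen NHX8 would be lower in every library.

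**Figure D3:**
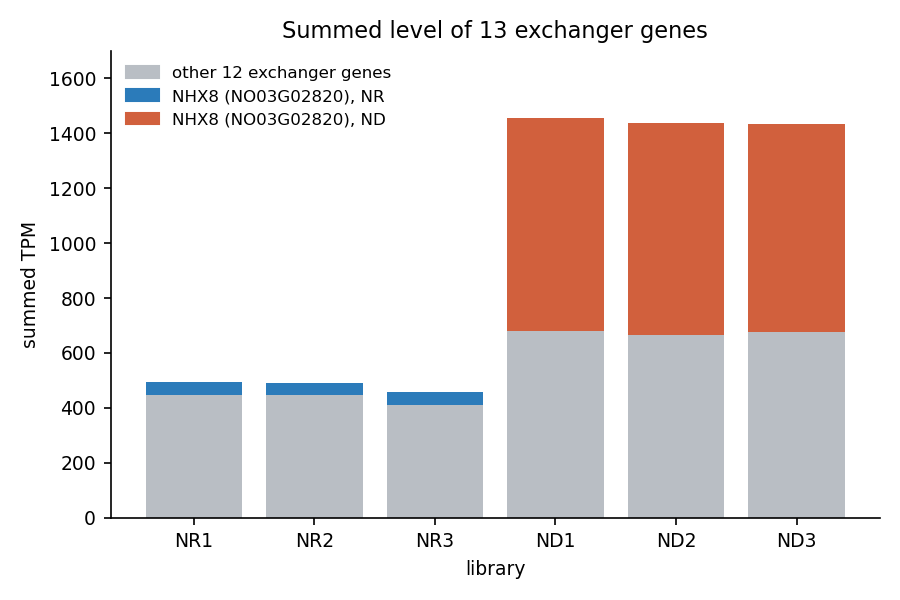
Summed TPM of 13 genes matched as sodium/proton or cation/proton exchangers in each library, with the part held by NHX8 (NO03G02820) in blue for NR and orange for ND and the other 12 genes in grey. NO13G02990, described as a sodium hydrogen exchanger but matched to another list, is not in the sum. The coloured part is 9.08% to 10.5% of the column in NR and 52.7% to 53.8% in ND.

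Other potassium channels and transporters divided evenly. Of 16 genes matched besides TPKA and TPKC, 6 rose, 6 fell and 4 missed the threshold (11 higher and 3 lower when scaled by totals only), and their median log2 change was 0.27. The shares of 37.5% higher and 37.5% lower were close to those of all genes. The match took in 2 genes by their symbols alone. It also took in Abcb8 (NO05G04460), described as the ATP-binding subunit of a mitochondrial potassium channel and in another column as an ABC transporter, and SKD1 (NO10G00340), described by a potassium transport defect and in another column as a vacuolar sorting protein. Without these 4 genes, 4 of 12 rose and 4 fell.

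Voltage-gated channel genes moved both ways. Kcnf1 (NO05G00130), named after a voltage-gated potassium channel subunit of animals, rose from 68.9 ± 4.66 to 205 ± 5.24 CPM (1.57 ± 0.07). A gene described as the rice outward-rectifying channel KOR1 (NO10G02530) rose from 188 to 393 CPM (1.07 ± 0.05). In contrast, both models named KCNC1, another animal voltage-gated channel, fell. NO07G02910 went from 400 ± 29.5 to 127 ± 6.13 CPM (-1.65 ± 0.06) and the adjacent NO07G02920 from 224 ± 33.0 to 34.3 ± 5.39 CPM (-2.71 ± 0.11), both with shared reads. Among potassium/proton antiporters, KEA5 (NO05G03190) rose (0.58 ± 0.08). KEA1 (NO09G00760, shared reads), named after an antiporter of the Arabidopsis chloroplast envelope, was called lower at -0.16 ± 0.05 and called higher at 0.16 with library totals alone. By TPM, TPKC and TPKA stood at places 13 and 16 of these 18 genes in NR and at places 2 and 3 in ND. In NR the range of TPKC overlapped that of KCNA4 (NO24G01950, 16.7 to 18.4 TPM). In ND the lowest TPKA library, at 211 TPM, was above the highest KOR1-like library, at 199 TPM.

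**Figure D4:**
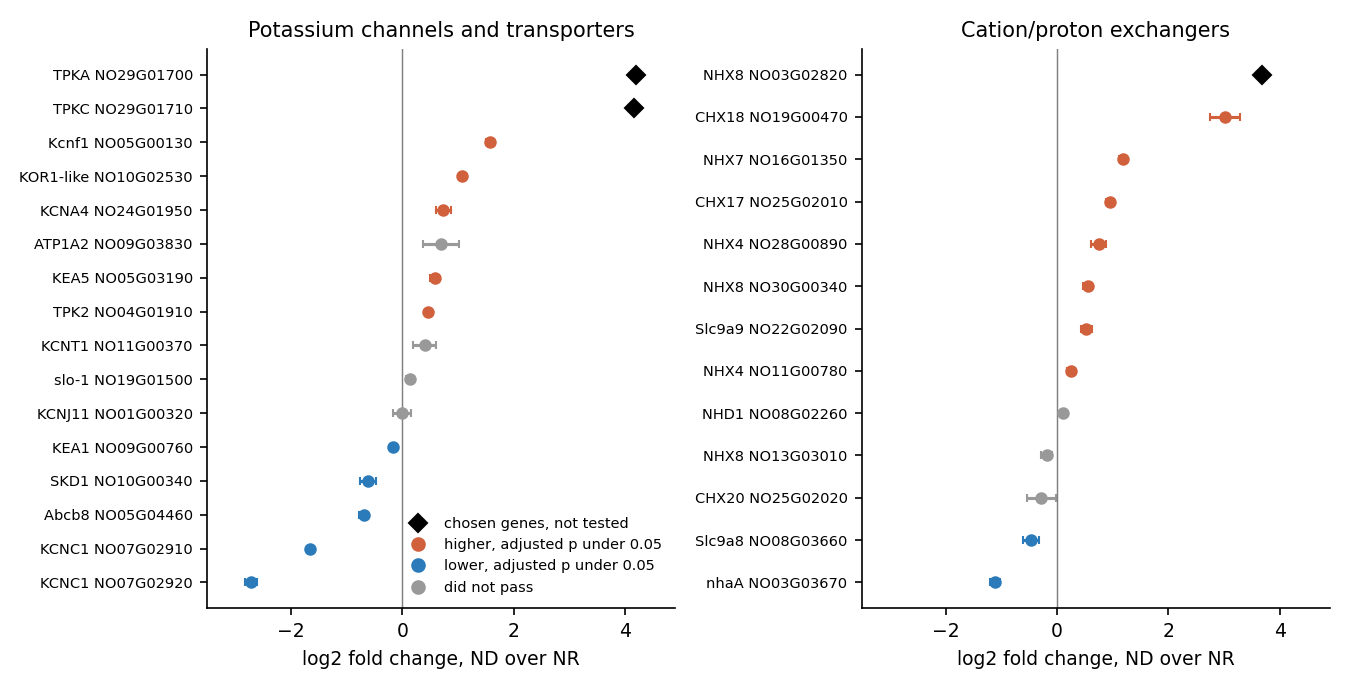
Log2 fold change of ND over NR for potassium channels and transporters (left, where TPK2 is a protein kinase matched by symbol, and 2 genes are not reported here) and for cation/proton exchangers (right). Black diamonds are the chosen genes and carry no test, and circles with SE bars are the other genes, orange for higher, blue for lower and grey for not passing at an adjusted p of 0.05. The diamonds lie at 4.20, 4.17 and 3.69, and CHX18 at 3.02 is the nearest circle.

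Two-pore calcium channels, a separate family of vacuolar cation channels in plants, did not move together. TPC1B (NO07G04580, shared reads) rose from 88.8 ± 1.52 to 482 ± 16.9 CPM (2.44 ± 0.06). The other models, singled out after their values were seen, were TPC1A (NO13G01050), which fell by 0.36 on the log2 scale but had only -0.04 with library totals alone, and TPC1 (NO04G01250), which did not pass (-0.10 ± 0.12, edgeR adjusted p = 0.469, and 0.22 with library totals alone). Over the whole list of 22 calcium channels, pumps and exchangers, 7 were called higher and 9 lower (12 and 6 when scaled by totals only), with a median of -0.06. The shares of 31.8% higher and 40.9% lower were near the 35.7% and 35.5% of all genes tested. The calcium pumps of the list moved both ways, with 4 of 12 genes higher and 5 lower (7 and 4 when scaled by totals only). Those that fell include yloB (NO16G02820, -1.39 ± 0.06, shared reads) and Atp2c1 (NO14G02170, -0.64 ± 0.06). Those that rose, named after their values were seen, include another gene called yloB (NO03G05590, 1.17 ± 0.11) and PMR1 (NO03G05580, 1.12 ± 0.12).

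Genes of the vacuolar-type and pyrophosphate-driven proton pumps, which build a gradient of the kind that exchangers use, changed little. The list holds no gene described as a plasma membrane proton pump. Of 14 genes 3 rose, 5 fell and 6 missed the threshold (9 higher and 1 lower when scaled by totals only), and the log2 changes ran from -0.43 to 0.60 with a median of -0.05. The shares were 21.4% higher and 35.7% lower, against 35.7% and 35.5% of all genes tested. The subunit ATP6V0A1 (NO20G02230) of the vacuolar pump rose from 1003 to 1361 CPM (0.44 ± 0.04). Subunit B (NO16G02040) went from 730 ± 18.5 to 544 ± 3.95 CPM (-0.43 ± 0.04, and -0.11 with library totals alone), and the catalytic subunit vatA (NO02G03720) from 886 ± 31.1 to 667 ± 32.1 CPM (-0.41 ± 0.05, and -0.09 with library totals alone). None of the 14 passed a change of 2 times, against 9.39% of all genes higher and 12.5% lower by that much.

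Transporters of other ions included some of the larger falls. Of 28 tested chloride, magnesium, mechanosensitive and other ion channel genes 14 were called higher and 7 lower (19 and 4 when scaled by totals only), with a median of 0.24. These were 50% higher and 25% lower, against 35.7% and 35.5% of all genes tested. Without 4 matches described with another function, 11 of 24 were higher and 7 lower. The 3 with the smallest p-values all fell. Clcn7 (NO17G01540), named after a proton/chloride exchanger of animal lysosomes, went from 126 ± 10.6 to 18.2 ± 0.526 CPM (-2.80 ± 0.09). The magnesium transporter genes At3g26670 (NO11G00750, -1.71 ± 0.08) and corA (NO07G03780, -2.24 ± 0.12) also fell. Other genes of both kinds, singled out after their values were seen, rose. They include another gene named corA (NO30G00450, 0.96 ± 0.08) and the chloride channel gene clh-3 (NO03G04820, 1.04 ± 0.07). Of 14 other sodium-linked transporter genes 3 were called higher and 6 lower (8 and 3 when scaled by totals only), with a median of -0.13. The shares here were 21.4% higher and 42.9% lower. SLC38A11 (NO09G03420, 1.62 ± 0.08, shared reads), named after an amino acid carrier, rose, and BASS2 (NO09G02290, -0.87 ± 0.06, shared reads), named after the sodium-coupled pyruvate carrier of Arabidopsis chloroplasts, and SLC38A1 (NO05G00800, -0.75 ± 0.06) fell. Namesakes of SLC38A11 moved both ways. NO09G03410 (0.55 ± 0.11, shared reads) rose. NO21G01080 (-0.36 ± 0.06) and NO29G01290 (-0.41 ± 0.08) were called lower, but had -0.04 and -0.10 with library totals alone.

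Calcium sensor, calcium-dependent kinase and 14-3-3 genes moved both ways, and the balance depended on the scaling. Some are of kinds that regulate potassium channels and sodium exchangers in land plants. Others are named after calmodulin-dependent kinases of animals. Of 39 tested calcium sensor, calcium-dependent kinase and 14-3-3 genes 13 rose, 21 fell and 5 did not pass, with a median of -0.27, while scaling by totals only gave 19 higher and 14 lower. These were 33.3% higher and 53.8% lower, against 35.7% and 35.5% of all genes tested. With library totals alone, 5075 of all 9329 genes were called higher and 2149 lower. The list holds 13 matched genes whose description names another function, and without them 11 of 28 were called higher and 16 lower (13 and 13 when scaled by totals only). The 14-3-3 gene and the sensors named calmodulin and CML12, singled out after their values were seen, were higher under both scalings. The 14-3-3 gene (NO02G02660) rose from 243 to 359 CPM (0.56 ± 0.05), calmodulin (NO27G00950) from 215 ± 8.32 to 307 ± 19.3 CPM (0.51 ± 0.06) and CML12 (NO04G05110) by 1.61 ± 0.09 on the log2 scale. Among kinases, CPK15 (NO18G01160) fell from 131 ± 2.62 to 4.32 ± 0.357 CPM (-4.93 ± 0.11) and CDPK2 (NO01G03580) from 91.2 ± 1.45 to 5.19 ± 0.145 CPM (-4.13 ± 0.12). In the other direction, a calmodulin-dependent kinase cmk-1 (NO06G02770) rose from 177 ± 12.2 to 1007 ± 46.4 CPM (2.51 ± 0.06). Of its namesakes, NO12G00720 (1.07 ± 0.07, shared reads) rose and NO10G00610 (-1.31 ± 0.10) fell. Among 8 genes described as CBL-interacting kinases, chosen after their values were seen, 6 fell and 2 rose (5 and 2 with library totals alone). CIPK23 (NO14G01080), named after a rice relative of the Arabidopsis kinase that activates a root potassium channel, went from 28.3 to 1.38 CPM (-4.29 ± 0.23). CIPK9 (NO01G05700) rose from 1075 to 1634 CPM (0.60 ± 0.04), and its namesake NO27G00450 was called lower at -0.29 ± 0.05 but had 0.03 with library totals alone.

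Likeness of pattern was measured as the mean absolute difference of log2 CPM over the 6 libraries, after each gene was centred on its own mean, and it mostly follows the size of the difference between conditions. The high-affinity nitrate transporter NRT2.1 (NO14G02450, shared reads) was among the 5 genes most like each of the 3, at a difference of 0.105 from TPKA, 0.207 from TPKC and 0.121 from NHX8. Its level was 93.9 CPM in NR and 1433 CPM in ND. TPKA and TPKC lay 0.211 from each other, which put TPKA at place 3 among the genes nearest to TPKC, and NHX8 lay 0.223 from TPKA and 0.307 from TPKC. Nearest to NHX8 was thfA (NO20G00850), a folate enzyme, at a difference of 0.073, with 50.8 CPM in NR and 610 CPM in ND. The described gene SLC35A3 (NO08G01090, shared reads), named after a nucleotide sugar carrier, was also near TPKA (0.134) and TPKC (0.245). It had no count in NR and 8.59 CPM in ND, so its place rests on the prior count of 2 used on the log scale. The remaining genes most like the 3 have no description.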

How the data were processed

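RNA of 3 ND and 3 NR cultures was sequenced, and the table of each library covers 10481 genes. Its unnormalised estimated count column was deposited by the authors, per the file headers, and 79.6% to 80.9% of genes in a library had exactly whole values as deposited, with no tolerance. Genes with a fractional value in any library are marked as shared reads. The TPM and FPKM columns, also deposited, are scaled for effective length. The deposited comparison of the authors holds FPKM values, log2 fold changes and p-values of 2057 genes. Tools listed in the submitters' processing notes, without roles, were edgeR, featureCounts, Picard, STAR, StringTie and Trim Galore. The genome build is not given in the sources used here. Extraction was with Trizol, per the labels.

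After rounding, ND was tested against NR by the quasi-likelihood F test of edgeR 4.0.16 (R 4.3.3), using filterByExpr, TMM scaling and Benjamini-Hochberg adjustment at 0.05 over 9329 genes. The scaling factors were 0.89 to 0.908 in NR and 1.11 to 1.12 in ND. The SE is the absolute log2 change over the square root of F. The script was tested on simulated data. Within conditions, library pairs differed beyond counting noise (chi-square per degree of freedom 1.73 to 2.98).

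The 3 genes, the 7 lists and the tests were chosen with earlier results of these data known. Lists were matched to gene names and descriptions, without the 3 genes. Named genes are the 3 with the smallest p-values of each list, the 3 gene models on either side by ID, the 5 most alike in pattern that have a description, and members of the 2 nearest families, which with other names were chosen after their values were seen. Alternatives were DESeq2 1.42.0, upper-quartile or RLE factors, library totals alone, a replicate block, no filter, each library left out, and limma 3.58.1 (trend) on log2(FPKM + 1) or log2(FPKM + 0.1) where 3 libraries reached an FPKM of 1. Lists without genes whose annotation also names another function and with whole counts only were added after seeing the data. The values of 2 matched genes, counted in their list, are not reported here.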

Additional observations from a re-analysis of the deposited data

How the results depend on the processing

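The log2 changes of the 3 genes kept their sign under all 14 alternatives. TPKA had 4.51 with library totals alone, 4.32 on log2(FPKM + 1) and 4.52 on log2(FPKM + 0.1). In the same order TPKC had 4.48, 4.51 and 4.62, and NHX8 had 4.00, 3.96 and 4.01. Under upper-quartile factors NHX8 had 3.80. Leaving out a library gave 4.15 to 4.25 for TPKA, 3.96 to 4.50 for TPKC and 3.66 to 3.71 for NHX8. The thin NR counts of TPKC, and also of TPKA, limit their precision.

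With library totals alone, log2(FPKM + 1) and log2(FPKM + 0.1), in that order, 5075, 5090 and 5059 genes were called higher and 2149, 2031 and 2019 lower. Over the 140 tested genes of all lists (52 higher and 54 lower), 82 were higher with library totals alone and 79 on log2(FPKM + 1), and 32, 28 and 28 were lower. For potassium genes 11, 10 and 10 were higher and 3, 3 and 3 lower, and for exchangers 1 was lower under each. With whole counts only, 3 potassium genes and 1 exchanger were lower. Leaving out a library gave 6271 to 6513 calls (3091 to 3258 higher, 3149 to 3255 lower), 99 to 107 in the lists (48 to 54 higher, 49 to 55 lower), 11 to 14 for potassium genes (6 to 8 higher, 5 to 6 lower) and 9 to 10 for exchangers (7 to 8 higher, 2 lower).

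Besides NO13G02990, given above, sign reversals of named genes, with library totals alone, log2(FPKM + 1) and log2(FPKM + 0.1) in that order, were NO03G02810 (0.01, 0.05, 0.05), NO03G02850 (0.15, 0.10, 0.11), NO04G01250 (0.22, 0.20, 0.22, and 0.01 with upper-quartile factors), NO09G00760 (0.16 in each), NO13G03010 (0.13, 0.15, 0.15), NO25G02020 (0.04, 0.04, 0.05), NO27G00450 (0.03, 0.04, 0.04) and NO29G01740 (0.07, 0.08, 0.08). KCNJ11 (NO01G00320, 0.00) had -0.01 with RLE factors and with DESeq2, -0.11 without NR culture 3, -0.05 without ND culture 3 and up to 0.09 without NR culture 1. Beyond the scaling itself, the cause was not tested.

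Same-numbered cultures shared little (correlation of deviations 0.0194 to 0.0887), and not every library correlated best with its own number. The replicate block gave 6590 calls against 6645 and 107 in the lists against 106.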
